A study of Arabidopsis thaliana with 6 samples.

Results

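The genes described here are *GI* (GIGANTEA, AT1G22770), *COR27* (AT5G42900) and *COR28* (AT4G33980) of Arabidopsis. They were chosen by name, with earlier results of these data known. Each is represented by 1 probe set of the Affymetrix ATH1 array that is annotated to that gene alone. Together they make up 3 of the 22746 non-control probe sets. The annotation used lists *COR28* under its locus number only. RNA came from inflorescences with buds up to floral stage 13, taken from plants 5 weeks old. The study states growth at 22°C in 16 h days and 8 h nights for plants of its mutant screen. It gives no separate conditions for the plants on the arrays. All plants carried mutant alleles of *BREVIPEDICELLUS* (*bp-2*), a KNOX homeobox gene, and of *ERECTA* (*er*), a receptor kinase gene. The series compared this *bp er* parent line (3 arrays) with the *bp er fil* suppressor line (3 arrays), which also carries *fil-10*, a point mutation in the YABBY gene *FILAMENTOUS FLOWER*. The suppressor line descends from a single mutagenized plant, found in an EMS screen and crossed back to its *bp er* parent several times, so it represents 1 allele and can carry other linked changes. No plant with wild-type *BP* and *ER* was profiled, and neither *BP* nor *FIL* had a probe set named here with which to check the genotype. The comparison was made to find genes governed by *FIL*.

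The circadian clock of Arabidopsis is a loop of repressors that follow each other through the day, and many plant genes peak at a fixed hour under its control. GI is a large plant-specific protein that accumulates toward dusk. It stabilizes the F-box photoreceptor ZEITLUPE, and with the related protein FKF1 it removes CDF repressors so that *CONSTANS* and *FT* can bring on flowering in long days. *COR27* and *COR28* are paralogs named for their induction by cold. Both are controlled by the clock, peak late in the day, act as repressors of evening clock genes such as *TOC1* and *PRR5*, and take part in light signalling with COP1 and HY5. They are also known as negative regulators of freezing tolerance.

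Expression is given as the MAS signal, the linear hybridization brightness of a probe set, scaled by the authors to a target of 500 on each array. The 6 arrays were alike in overall level, with medians of 193 to 215 and between 36.2% and 39.2% of probe sets under a signal of 100. *bp er* replicate 3 had both the lowest median and the largest share under 100. The 3′ to 5′ signal ratio of the array's own probe sets was 14.2 to 22.0 for actin and 1.78 to 2.70 for GAPDH, and both replicate 3 arrays lay inside these 2 ranges of ratios. Replicate 3 stood apart in both genotypes for a set of transcripts. Probe sets were kept where 3 or more arrays gave a signal of 100 or more. Of these 14456, replicate 3 was below replicates 1 and 2 by 1 log2 unit or more in both genotypes for 248 (1.72%), and above them by as much for 85 (0.588%). Of 34 marker genes of flower tissues in 4 lists, 5 had a probe set named for them alone in the annotation used. The tapetum gene *A9* (AT5G07230) had signals of 4735 to 8187, a pollen LAT52-like gene (AT5G45880) of 5131 to 9917 and the nectary sugar transporter gene *SWEET9* (AT2G39060) of 369 to 2711. *UFO* and *CLV3*, each active in few cells of the meristem, stayed under 100 on every array, and the other floral identity genes were not analysed here. In bulk tissue, fewer cells of a type and less RNA per cell cannot be told apart.

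*GI* had a signal of 1791, 1600.1 and 528 on *bp er* replicates 1, 2 and 3, and of 1869, 1664 and 564 on the *bp er fil* arrays in the same order. The 4 arrays of replicates 1 and 2 were high and both replicate 3 arrays low, and the genotypes overlapped. On replicates 1 and 2 between 91.1% and 92.3% of all probe sets had a lower signal, against 72.8% and 72.9% on replicate 3.

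*COR27* had a signal of 638, 972.5 and 67.4 in *bp er*, and of 2330.5, 2538 and 36.9 in *bp er fil*, again in the order of replicates 1, 2 and 3. Its arrays therefore formed 3 levels, highest on *bp er fil* replicates 1 and 2, lower on *bp er* replicates 1 and 2, and under 100 on both replicate 3 arrays. *COR28* had a signal of 263, 306 and 9.60 in *bp er* and of 786, 761 and 37.2 in *bp er fil*. Here too both *bp er fil* arrays of replicates 1 and 2 were highest, both *bp er* arrays of these replicates lower, and replicate 3 lowest. On replicate 3 *COR28* had the higher signal in *bp er fil* and *COR27* in *bp er*. Signals this low were not called present or absent in the values used here, so the order of the genotypes on replicate 3 is given as a number only.

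**Figure D1:**
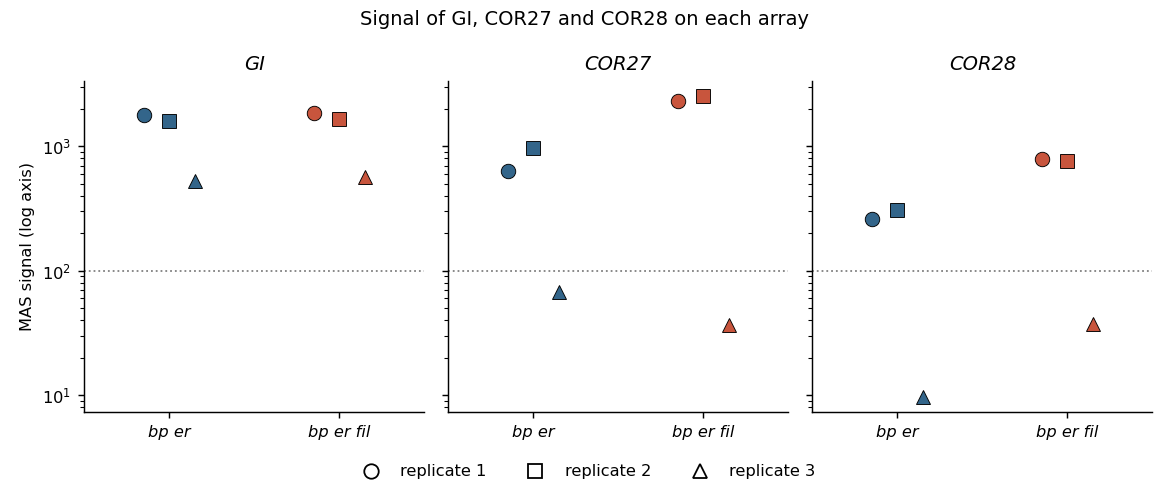
MAS signal on a log axis for each of the 6 arrays, by genotype, with 1 panel for each of *GI*, *COR27* and *COR28*; circles, squares and triangles are replicates 1, 2 and 3, and the dotted line marks a signal of 100. The replicate 3 triangles are lowest in every panel, and *COR27* and *COR28*, unlike *GI*, separate the genotypes on replicates 1 and 2.

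Replicate 3 was set against the mean log2 signal of replicates 1 and 2 within each genotype. This is 1 array against 2, so the shifts are descriptions without a test. The replicate 3 signal of *GI* was 3.21-fold lower in *bp er* and 3.13-fold lower in *bp er fil*, log2 shifts of −1.68 and −1.65. The genotypes gave nearly the same shift for this gene, 0.03 apart on the log2 scale, while replicates 1 and 2 of *bp er* lay 0.16 apart and those of *bp er fil* 0.17.

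*COR27* was lower on replicate 3 by at least 7.88-fold in *bp er* and by at least 24.3-fold in *bp er fil*, with the replicate 3 signals, both under 100, raised to 100. As measured, its log2 shifts were −3.55 and −6.04. Counting *COR27* itself, 66 of the 14456 probe sets had a shift this low in *bp er* against 3 in *bp er fil*, ranks that rest on signals of 67.4 and 36.9. *COR28* was lower by at least 2.84-fold in *bp er* and by at least 7.73-fold in *bp er fil* with its replicate 3 signals raised to 100, and its measured log2 shifts were −4.88 and −4.38. On the measured scale 15 probe sets of *bp er*, or 10 of *bp er fil*, *COR28* included, had a shift as low. The minimum is larger in *bp er fil* for both genes, because their signals on replicates 1 and 2 were higher there and the same level of 100 was set under both genotypes.

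All 3 genes had a log2 shift of −1 or below in both genotypes, against 1.72% of all probe sets kept. All 3 also had both replicate 3 arrays below the other 4, as had 9.86% of probe sets. The genes and the split at replicate 3 were chosen with earlier results of these data known, so these shares only describe them. Over all probe sets kept the median log2 shift was −0.01 in *bp er* against 0.02 in *bp er fil*, and the lowest 5% lay under −1.13 and −0.81, respectively. The other values that moved with replicate number 3 included *SWEET9*, with log2 shifts of 1.52 and 0.67. The pollen LAT52-like gene had shifts of −0.50 and 0.53, and *A9* of −0.10 and 0.35. The part of flower composition in the shift of *GI*, *COR27* and *COR28* was not tested. The hour of harvest of each replicate is not given in the sources used here.

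**Figure D2:**
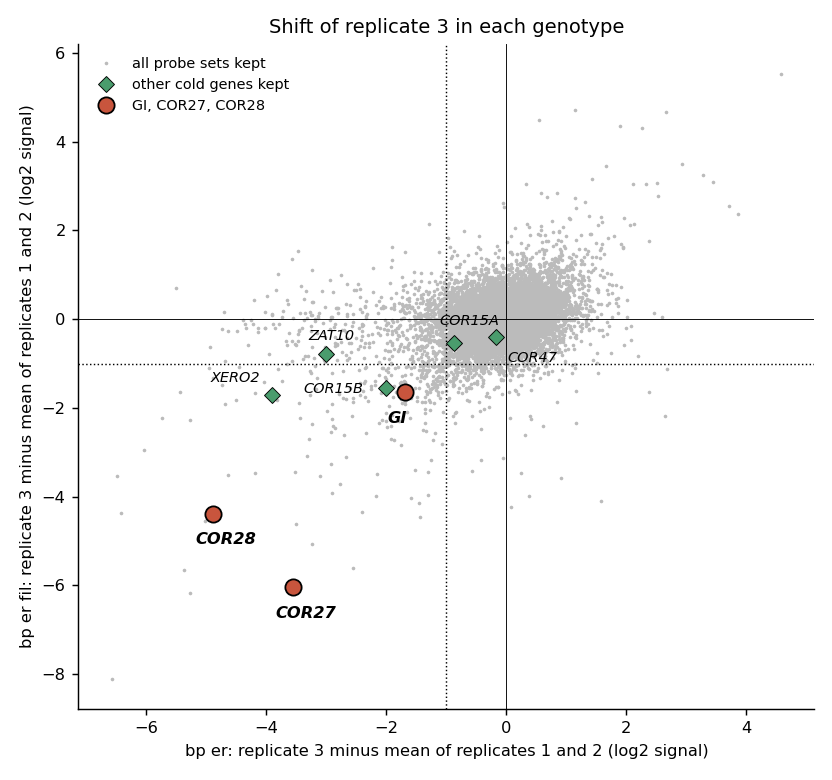
Log2 signal of replicate 3 minus the mean of replicates 1 and 2, in *bp er* (x axis) and in *bp er fil* (y axis), for all 14456 probe sets kept (grey), 5 other cold genes (green diamonds) and *GI*, *COR27* and *COR28* (red); dotted lines mark −1. Most probe sets lie around 0 on both axes, and the 3 red points lie below −1 on both, with *COR27* at −3.55 and −6.04.

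Within replicates 1 and 2, *COR27* and *COR28* were higher in *bp er fil* and *GI* was not distinguishable between the genotypes. The mean signal of *COR27* was 805 ± 237 in *bp er* against 2434 ± 147 in *bp er fil* (SD, n = 2 arrays per genotype). The log2 difference was 1.63 (SE 0.19), or 3.09-fold with a 95% confidence interval of 2.31 to 4.12, and it passed limma's test over all probe sets kept (adjusted p = 9.53e-04). *COR28* had 284 ± 30.6 and 774 ± 18.0 (SD, n = 2 arrays per genotype), a log2 difference of 1.45 (SE 0.18), or 2.73-fold with an interval of 2.07 to 3.60 (limma adjusted p = 0.00134). *GI* had 1696 ± 135 and 1767 ± 145 (SD, n = 2 arrays per genotype). Its log2 difference of 0.06 (SE 0.15, limma adjusted p = 0.841) has a 95% interval from −0.26 to 0.38, which leaves room for a ratio between 0.835 and 1.299.

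Limma called 2 of the 3 genes as higher in *bp er fil* on replicates 1 and 2, against 4.77% of all probe sets kept, and 4.81% were called lower. As the genes were chosen with earlier results of these data known, this count is a description only. The median log2 difference of the 3 genes was 1.45 and that of all probe sets kept 0.04. For *COR27* and *COR28* both *bp er fil* arrays lay above both *bp er* arrays, as they did for 30.8% of probe sets, and for *GI* the genotypes overlapped. Marker genes of flower parts did not all move alike with genotype on these arrays. Limma called *SWEET9* (log2 difference −0.95, adjusted p = 0.0310) and the LAT52-like gene (−0.89, adjusted p = 0.00252) lower in *bp er fil*. *A9* was not called (0.32, adjusted p = 0.168). Over all arrays neither *SWEET9* (limma adjusted p = 0.2245) nor the LAT52-like gene (0.228) passed. With the replicate block *SWEET9* did (0.0217) and the LAT52-like gene did not (0.145). The LAT52-like signal on replicate 3 was the higher one in *bp er fil*. The part of these markers in the differences of *COR27* and *COR28* was not tested. With 1 of the 4 arrays left out, *COR27* differed by 1.32 to 1.93 and *COR28* by 1.34 to 1.56, and both passed the test each time, though 1 genotype then had a single array and its spread was assumed to be that of the other. Both calls rest on the intensity trend in limma's variance estimate. Without it limma called 0 probe sets (3141 at an unadjusted p under 0.05), and the adjusted p was 0.0827 for *COR27* and 0.0798 for *COR28*.

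Over all 6 arrays none of the 3 genes passed limma's test. The mean signals, with *bp er* first, were 1307 ± 681 and 1366 ± 702 for *GI*, while *COR27* had 559 ± 458 and 1635 ± 1388, and *COR28* had 193 ± 160.2 and 528 ± 425 (SD, n = 3 arrays per genotype). Their log2 differences were 0.07 (SE 0.56), 0.79 (SE 1.62) and 1.62 (SE 1.52), with limma's adjusted p at 0.959, 0.833 and 0.622. Limma called 0 of the 14456 probe sets (0%) higher in *bp er fil* over all arrays, 1414 at an unadjusted p under 0.05, and none of the 3 genes reached that either. Leaving out *bp er* replicate 3 turned the sign for all 3 genes (−0.49, −0.39 and −0.012), and leaving out *bp er fil* replicate 1 or 2 turned it for *GI* (−0.25 and −0.16) and *COR27* (−0.18 and −0.24), none of them past the test. The standard error of *COR27* and *COR28* was over all arrays several times that of the fit on replicates 1 and 2, since the spread within each genotype then holds the distance of replicate 3.

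With the replicate number as a block, *COR28* passed the test over all arrays (limma adjusted p = 0.0239), as did 1.60% of probe sets in this direction, while *COR27* (adjusted p = 0.312) and *GI* (0.819) did not. Same-numbered pairs of arrays differed for *COR28* by 1.58, 1.31 and 1.95 on the log2 scale, and for *COR27* by 1.87, 1.38 and −0.87. The third difference of each gene rests on signals under 100. With these raised to 100 in the fit with the block, an alternative added after the data were seen, the adjusted p was 0.104 for *COR28* and 0.0813 for *COR27*. On the scale of the mean linear signals of all 3 arrays, where the low arrays weigh least, *bp er fil* was 2.92 times *bp er* for *COR27*, 2.74 times for *COR28* and 1.045 times for *GI*. Whether the genotype difference on replicate 3 departs from that on replicates 1 and 2 was not tested. The study's list of genes higher in *bp er fil-10* holds *COR27* and *COR28* and was made from these same arrays, so their direction here is not independent of it. The replicate 3 shifts and the differences on replicates 1 and 2 share 4 arrays and are given side by side only.

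**Figure D3:**
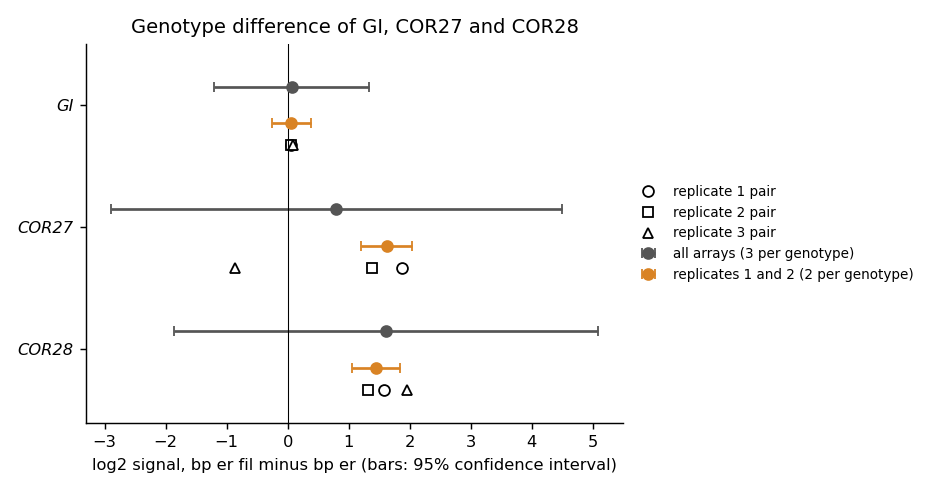
Log2 signal of *bp er fil* minus *bp er* for *GI*, *COR27* and *COR28*; filled points are limma estimates over all arrays (grey, n = 3 per genotype) and over replicates 1 and 2 (orange, n = 2 per genotype) with 95% confidence intervals, and open symbols are the differences of same-numbered arrays. The orange intervals of *COR27* and *COR28* lie above 0 and that of *GI* spans it, and all grey intervals span 0.

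The other clock and cold genes were taken from 6 lists with 87 genes. Of these, 10 had a probe set named for them alone in the annotation used, and 8 were kept. In that annotation 6621 of the 14456 probe sets kept were not named for 1 gene alone. A listed gene without a named probe set may therefore still be on the array. The remaining genes of these lists, among them *CCA1*, *LHY*, *TOC1*, *PRR5*, *PRR7*, *PRR9*, *ELF4*, *LUX*, *CO*, *FT*, the *CBF* genes and *RD29A*, were not analysed here. No gene of the evening clock list had a probe set named for it alone, so *GI*, *COR27* and *COR28* are the evening genes described. *RVE6* (AT5G52660), a MYB-like activator of evening clock genes, had signals of 396, 279 and 429 in *bp er* and 363, 406 and 372 in *bp er fil*. Its replicate 3 arrays lay among or just above the others, with log2 shifts of 0.37 and −0.05, and the genotypes overlapped (limma adjusted p on replicates 1 and 2 = 0.604).

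Of the partners of GI in photoperiod signalling, 2 had a probe set named for them alone. Both were called higher in *bp er fil* on replicates 1 and 2, a call made for 4.77% of all probe sets. Over all arrays neither passed (limma adjusted p = 0.1501 for *CDF5* and 0.241 for *SPY*, and with the replicate block 0.0772 and 0.169). *CDF5* (AT1G69570), a DOF repressor of *CONSTANS* from the CDF family, had signals of 155, 141 and 207 in *bp er* and 268.5, 309 and 311 in *bp er fil*. Every *bp er fil* array was above every *bp er* array, and the log2 difference on replicates 1 and 2 was 0.96 (SE 0.26, limma adjusted p = 0.0415). *SPY* (AT3G11540), an O-fucosyltransferase that interacts with GI and restrains gibberellin signalling, had 664, 643 and 749.7 in *bp er* and 1037, 1163 and 753 in *bp er fil*, a log2 difference of 0.75 (SE 0.16, limma adjusted p = 0.0137) on replicates 1 and 2. For *SPY* replicate 3 gave almost equal signals in the genotypes. With 1 of the 4 arrays left out, which leaves a genotype with a single array, the difference was 0.86 to 1.06 for *CDF5* and 0.67 to 0.83 for *SPY*. The call of *CDF5* was lost each time (adjusted p = 0.0903 to 0.221), and that of *SPY* 3 of 4 times (0.0539 to 0.0796). *HYH* (AT3G17609), a bZIP partner of HY5, was under 100 on 5 arrays and not tested. Its signals were 3.00, 47.7 and 112 in *bp er* and 2.30, 2.20 and 75.1 in *bp er fil*, highest on replicate 3 in both.

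Of the 38 cold genes listed, 6 had a probe set named for them alone and 5 were kept. Limma called 0 of these 5 higher and 2 lower in *bp er fil* on replicates 1 and 2, against 4.77% and 4.81% of all probe sets. At an unadjusted p under 0.05, 0 were higher and 3 lower. *XERO2* (AT3G50970, also *LTI30*), which encodes a cold-induced dehydrin, had signals of 991.5, 1259.8 and 74.5 in *bp er* and of 544, 581 and 173 in *bp er fil*. In *bp er fil* it fell by 0.99 on the log2 scale on replicates 1 and 2 (SE 0.17, limma adjusted p = 0.00594), the reverse of the direction of *COR27* and *COR28*. On replicate 3 its signal was the higher one in *bp er fil*, and over all arrays the difference was −0.26 and did not pass (limma adjusted p = 0.916, and 0.743 with the replicate block). *COR47* (AT1G20440), another dehydrin gene, had 7216, 6724 and 6238 in *bp er* and 5428, 3864 and 3481 in *bp er fil*. It fell by 0.60 (SE 0.16, limma adjusted p = 0.0402) on replicates 1 and 2, a call that was lost without *bp er* replicate 1 (adjusted p = 0.217), *bp er* replicate 2 (0.107) or *bp er fil* replicate 2 (0.188), and over all arrays it passed with the replicate block (adjusted p = 0.0308) and not without it (0.152).

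*COR15B* (AT2G42530), which encodes a chloroplast protein that protects membranes during freezing, had signals of 2469, 2353 and 605 in *bp er* and of 3393, 2316 and 959 in *bp er fil*. Its replicate 3 arrays were the lowest, with log2 shifts of −1.99 and −1.55, and its genotypes overlapped on replicates 1 and 2 (limma adjusted p = 0.470). The neighbouring paralog *COR15A* (AT2G42540) had 7725, 7723 and 4232 in *bp er* and 6317, 4996 and 3860 in *bp er fil*, with smaller shifts of −0.87 and −0.54 and a log2 difference of −0.46 (SE 0.15, limma adjusted p = 0.0689) on replicates 1 and 2, which passed with the replicate block (0.0423). Without *bp er fil* replicate 1 that difference was −0.63 and passed (limma adjusted p = 0.0121), and without *bp er fil* replicate 2 it was −0.29 (0.302). *ZAT10* (AT1G27730), a zinc finger repressor induced by cold, drought and salt, had 231, 277 and 31.7 in *bp er* and 58.6, 452 and 94.4 in *bp er fil*, with overlapping genotypes. Of the 5 cold genes kept, 2 (*XERO2* and *COR15B*) had log2 shifts of −1 or below in both genotypes, and in 3 both replicate 3 arrays lay below the other 4, against 1.72% and 9.86% of all probe sets. A further gene of the list, *AT4G37220*, was under 100 on every array.

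**Figure D4:**
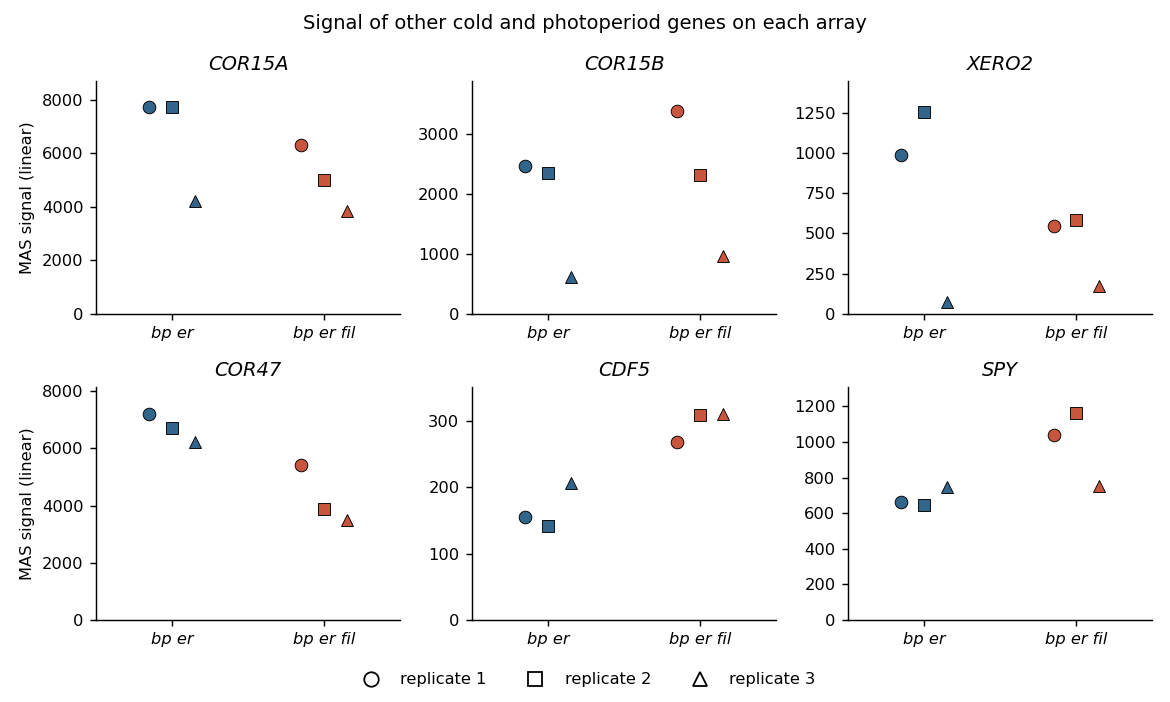
MAS signal on a linear axis from 0 for each of the 6 arrays, by genotype, for *COR15A*, *COR15B*, *XERO2*, *COR47*, *CDF5* and *SPY*; circles, squares and triangles are replicates 1, 2 and 3. Replicate 3 is the lowest array of each genotype for *COR15A*, *COR15B*, *XERO2* and *COR47*, with the largest log2 shifts for *COR15B* and *XERO2*, and it is not for *CDF5* or, in *bp er*, for *SPY*.

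The likeness of whole profiles was measured as the root mean square distance between log2 signals over the 6 arrays, after the mean of each probe set was removed, among the 7835 kept probe sets with 1 gene name. *COR28* was the second nearest of all genes to *COR27* (distance 0.83, Pearson's r 0.938 over 6 arrays), and *COR27* the fourth nearest to *COR28*. These ranks rest on replicate 3 signals under 100. With such signals raised to 100, an alternative added after the data were seen, the distance was 0.75 (r 0.987) and the ranks became 6 and 114. *GI* ranked at 60 for *COR27* and at 115 for *COR28*. Counted from *GI*, *COR27* ranked at 7790 and *COR28* at 7787 of 7834, among the farthest profiles. With low signals raised to 100 the ranks of *GI* were 48 and 53, and those counted from *GI* 7689 and 729. Although the r of *GI* with *COR27* and *COR28* was 0.946 and 0.947, the distances were 1.65 and 1.61, and 1.21 and 0.64 with low signals raised to 100. All these values share the same 6 arrays, and a profile with 2 low arrays gives a high r with any other that is low on the same arrays.

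Nearest to *GI* was *AT5G39410* (distance 0.17, r 0.995), with signals of 1328, 1314 and 492 in *bp er* and 1339, 1348 and 561 in *bp er fil*. *AT4G14270*, *DPE1* (AT5G64860, a glucan disproportionating enzyme of starch breakdown), *PIFI* (AT3G15840, named for post-illumination chlorophyll fluorescence) and *COR15B* followed, at distances of 0.20 to 0.22. The same 5 genes were nearest with low signals raised to 100. As genes picked for their likeness to *GI*, they had low replicate 3 arrays and no call on replicates 1 and 2 by selection, and neither is a finding.

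Of the 5 genes nearest to *COR27*, and of the 5 nearest to *COR28*, 1 remained among the nearest 5 with low signals raised to 100, so the following profiles are those of the measured scale. *AT2G47890* was nearest to *COR27* (distance 0.64, r 0.977), with signals of 197.5, 251 and 19.6 in *bp er* and 270.4, 286 and 11.3 in *bp er fil*. It matched the drop on replicate 3 but not the genotype difference (log2 difference of 0.32 on replicates 1 and 2, SE 0.24, limma adjusted p = 0.440). *AT1G11210*, *AT4G32340* and *AT2G39920*, also among the 5 nearest to *COR27*, likewise did not pass on replicates 1 and 2 (adjusted p = 0.521, 0.130 and 0.404). For *COR28* the nearest was *AT1G07050* (distance 0.58, r 0.982), with signals of 262, 252 and 3.00 in *bp er* and 441.5, 302.5 and 17.7 in *bp er fil*, which did not pass (adjusted p = 0.203). Next came *AT3G62950*, annotated as a glutaredoxin class protein, and *AT3G10020*, of unknown function. Both were higher in *bp er fil* on replicates 1 and 2, by 1.00 on the log2 scale (SE 0.27 and 0.17, limma adjusted p = 0.0373 and 0.00618). Of these, *AT3G10020* had the stronger signal, with 2477, 3294 and 293 in *bp er* and 6537, 4970 and 880 in *bp er fil*, so it was above 100 on every array, with *bp er fil* above *bp er* for each replicate number. Over all arrays neither *AT3G62950* nor *AT3G10020* passed (limma adjusted p = 0.478 and 0.570, and with the replicate block 0.0902 and 0.0190). All these genes were picked for their likeness to *COR27* or *COR28* over the same arrays. Their low replicate 3 arrays, their genotype differences and the calls of *AT3G62950* and *AT3G10020* are therefore not findings.

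**Figure D5:**
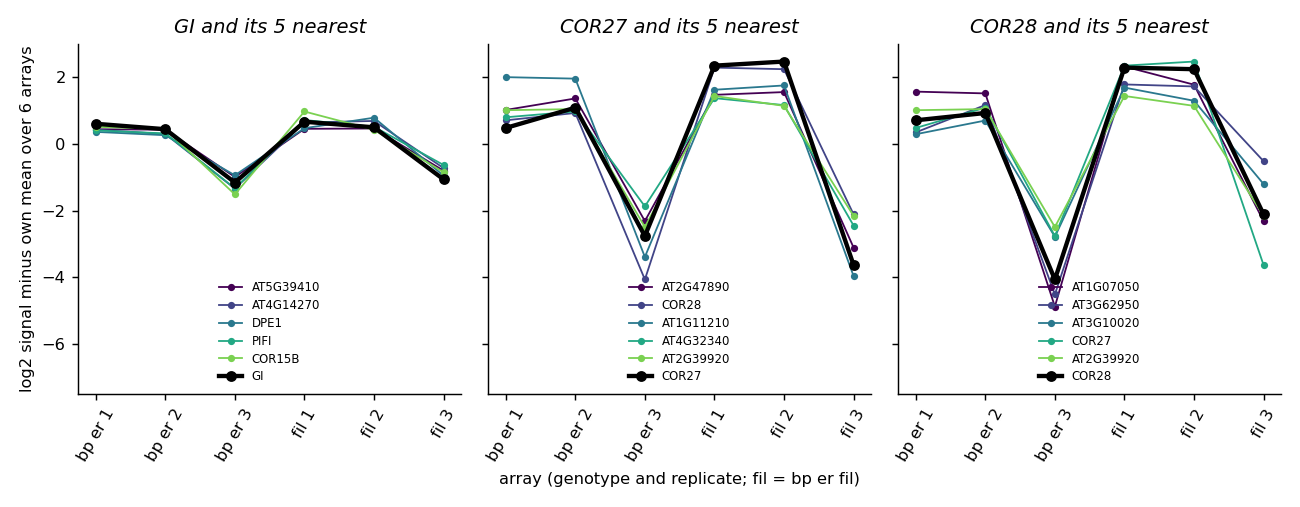
Log2 signal minus the gene's own mean over the 6 arrays (y axis) for *GI*, *COR27* and *COR28* (thick black lines) and the 5 named genes nearest to each (thin lines), by array; lines join separate arrays only to show a profile. Every profile dips on both replicate 3 arrays, and the black line of *GI* spans a smaller range than those of *COR27* and *COR28*.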

How the data were processed

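The values are MAS signals per probe set on a linear scale, made by the authors with GCOS from 6 ATH1 arrays and scaled on each array to a target of 500, and the deposited signal comes without detection calls. The software version is not given in the sources used here. Log2 was taken with the single 0 set to 0.1. Of 22810 probe sets, 64 controls were left out and 14456 were tested, those at 100 or more on 3 or more arrays. Genotypes were compared with limma 3.58.1 in R 4.3.3 (lmFit, eBayes with an intensity trend, 2-sided, Benjamini-Hochberg over all probe sets tested, called under 0.05), on all arrays and on replicates 1 and 2. The code of the fit was tested on simulated arrays with independent noise of equal spread. Such arrays cannot check the intensity trend or the effect of replicate 3. Replicate 3 was compared without a test. "At least" means signals under 100 raised to 100, and covers only that step. Tables and figures used Python 3.11.15, pandas 2.3.3, numpy 2.4.6, scipy 1.17.1 and matplotlib 3.10.9.

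The replicate numbers come from the labels, which call the samples biological replicates and give no shared batch. After each genotype's mean was removed, arrays 1 and 1, 2 and 2, and 3 and 3 had correlations of 0.103, 0.221 and 0.380, each over 0.1, so they were treated as pairs in the block. *bp er* replicate 1 correlated more with *bp er fil* replicate 2 (0.183), and *bp er* replicate 2 slightly more with *bp er fil* replicate 1 (0.225). The correlations therefore do not show that replicates 1 and 2 pair by number, and the pairing rests on replicate 3.

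Genes were named through the array annotation and TAIR10.1, which list 14016 probe sets, 13513 with 1 gene. The genes, the lists and the split at replicate 3 were chosen with earlier results of these data known. Named were the 3 genes, the 5 nearest profiles of each, and the listed genes with a probe set named for them alone. Alternatives were the replicate block, quantile normalization, signals raised to 100, other filters, no intensity trend and leaving out arrays. With 2 or 3 arrays a group, precision is low, and p-values measure only the spread between these samples.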

Additional observations from a re-analysis of the deposited data

How the results depend on the processing

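After quantile normalization the log2 shift of *GI* on replicate 3 was −1.64 in *bp er* against −1.67 in *bp er fil*. With signals under 100 raised to 100 the log2 shift became −2.98 and −4.60 for *COR27* and −1.50 and −2.95 for *COR28* (*bp er* first), and after quantile normalization −4.54 and −4.30 for *COR28*. Set against replicate 1 or 2 alone, the shifts ran from −1.76 to −1.60 and −1.73 to −1.56 for *GI*, from −3.85 to −3.24 and −6.10 to −5.98 for *COR27*, and from −4.99 to −4.77 and −4.40 to −4.35 for *COR28*.

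On replicates 1 and 2, *COR27* (1.63) and *COR28* (1.45) passed under 8 of 9 alternatives each and not without the intensity trend (adjusted p = 0.0827 and 0.0798). Called probe sets numbered 1386, 0 without the trend (3141 at an unadjusted p under 0.05), and 263 (without *bp er* replicate 1) to 1439 with 1 array left out, when *GI* ran from −0.025 to 0.14. With an array left out, *RVE6* ran from −0.045 to 0.46, *COR15B* from −0.058 to 0.49 and *ZAT10* from −2.11 to 0.84. *COR15A* ran from −0.63 to −0.29 and *COR47* from −0.85 to −0.36. Each of these fits holds a genotype of 1 array, assumed to vary like the other. Quantile normalization ended the calls of *CDF5* (0.95, adjusted p = 0.0506) and *COR47* (−0.44, 0.104), no filter on low signals ended both too (0.106 and 0.0999), raising signals to 100 ended that of *COR47* (0.0660), and no list gene was called without the trend.

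Over all arrays 1 probe set was called, 540 with the replicate block, 18 with signals raised to 100, 531 with both (added after the data were seen), 0 with a signal of at least 100 required on all 6 arrays (2282 at an unadjusted p under 0.05 in limma), and 1 to 123 (without *bp er fil* replicate 3) with 1 array left out. The replicate block alone brought *COR28* (1.62) past the test (adjusted p = 0.0239). With 1 array left out *GI* ran from −0.49 to 0.62, *COR27* from −0.39 to 2.81 and *COR28* from −0.012 to 3.08. *COR27* and *COR28* have no value under the filter on all 6 arrays. A signal under 100 limits *COR27* and *COR28* on replicate 3. The replicate block changed no other call of *GI*, *COR27* and *COR28*.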

Other observations

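*PWD* (AT5G26570), which encodes a dikinase of starch breakdown, had signals of 1495, 1456.5 and 594 in *bp er* and of 2295, 2131 and 686 in *bp er fil*. It was picked after its values were seen, as a second starch enzyme gene beside *DPE1* (AT5G64860), with 1307.5, 1219.9 and 530.1 in *bp er* and 1411, 1756 and 526 in *bp er fil*. Both had replicate 3 below the other arrays in both genotypes, by −1.31 and −1.69 for *PWD* and by −1.25 and −1.58 for *DPE1* on the log2 scale. On replicates 1 and 2 *PWD* was higher in *bp er fil* by 0.58 (SE 0.14, limma adjusted p = 0.0229), and *DPE1*, with a difference of 0.32 (SE 0.16), did not pass (adjusted p = 0.226). Over all arrays *PWD* did not pass (limma adjusted p = 0.676, and 0.130 with the replicate block). As both genes were picked by their values, their low replicate 3 arrays and the call of *PWD* are not findings.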
